A study of Mus musculus with 12 samples.

Results

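Expression of 5 lipid synthesis enzymes was followed in the RNA-seq counts of 12 mouse brains. The enzymes are Pmvk, Fdft1, Nsdhl and Lbr of the cholesterol pathway and Fa2h of myelin lipid synthesis. They are 5 of the 15928 genes counted and 5 of the 1349 whose names could be recovered, and all 5 were found. The count table carries no gene names, so each gene was named by the single match of its mean normalized count to the means listed in the DESeq2 table of the study. That table ranks genes by the difference between Tg2576 (Tg) and wild type (Wt) mice, and 81.3% of the genes named in this way had an unadjusted p under 0.05 for that difference here. The direction of the enzymes between Tg and Wt mice is therefore a description of genes already selected on it. The table was not ranked by sex or batch, though its model adjusts for both. A correlation over Wt and Tg mice together takes in the selected difference. Values within Tg mice or after removal of sex, batch and condition are therefore given beside the main ones, except for the genes most like each enzyme.

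Tissue came from 5 Wt and 7 Tg mice and held dorsal hippocampus and cortex of each mouse together. Tg2576 mice carry a human APP gene with the Swedish double mutation, driven by a hamster prion protein promoter that is active in neurons and in other cells, and they deposit amyloid with age. The Wt mice were 3 labelled female and 2 labelled male, and the Tg mice were 4 female and 3 male. The labels give an age of 11 months and the methods a range of 11 to 14 months. Libraries were made in 2 batches. The first comprised 3 Wt and 5 Tg mice of both sexes. In the second, both Wt mice were female and both Tg mice were male, so genotype and sex cannot be separated there. Between 15768135 and 20996174 reads per mouse fell on the genes counted.

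Cholesterol in the brain is made in place, because lipoproteins of the blood hardly cross the blood-brain barrier, and myelin holds most of it. Synthesis runs from acetyl-CoA through mevalonate and squalene to lanosterol, which a chain of reductases and demethylases turns into cholesterol. Many genes of this chain are driven by SREBP2, a membrane-bound transcription factor released when sterols run low. Myelin also needs galactolipids built on ceramides with very long and hydroxylated fatty acids, and these are made mainly by oligodendrocytes.

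The genotype label held for App, the amyloid precursor protein gene, on the minus strand of chromosome 16. App was between 1214 and 1496 CPM (reads per gene relative to the library total, adjusted by the trimmed mean of M values, TMM) in Wt mice and between 2991 and 5727 CPM in Tg mice. The sex label did not hold for mouse 41. This Wt mouse is labelled male, but Xist, the RNA of the inactive X chromosome, stood at 198.9 CPM, beside 149.5 to 233.4 CPM in the mice labelled female and at most 0.06 CPM in the other mice labelled male. The comparisons and the main correlations below are given with and without this library. Markers of oligodendrocytes and of choroid plexus, the epithelium that secretes cerebrospinal fluid, also differed between the dissections. The summed level of 13 oligodendrocyte markers ranged from 1190 to 3920 CPM in Wt mice and from 1632 to 6587 CPM in Tg mice, and that of 14 choroid plexus markers from 27.9 to 435.4 CPM and from 27.3 to 1807 CPM. In such bulk tissue, fewer cells of a type and less RNA per cell cannot be told apart.

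Pmvk, phosphomevalonate kinase, adds the second phosphate group to mevalonate (chromosome 3 of GRCm38, 89454541 to 89469013, plus strand). It stood at 21.5 CPM in mouse 12, 24.8 in mouse 41, 20.6 in mouse 79, 14.5 in mouse 80 and 18.9 in mouse 95 of the Wt group. In Tg mice the lowest level was 24.4 CPM, the median 24.9 and the highest 26.8. The 7 Tg mice thus lay in a narrow band, 4 of the 5 Wt mice lay below that band, and mouse 41 lay inside it. The coefficient of variation among Tg mice was 3.73%, and counting error alone gives 4.63% at this depth. Among Wt mice it was 18.8%, where counting error gives 5.21%. The mean was 20.1 ± 3.77 CPM in Wt (SD, n = 5) and 25.3 ± 0.943 CPM in Tg mice (SD, n = 7).

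Fdft1, farnesyl-diphosphate farnesyltransferase or squalene synthase, makes the first product that is committed to sterols (chromosome 14, 63145150 to 63179578, minus strand). Levels were 41.2, 38.1, 50.6, 49.5 and 50.5 CPM in Wt mice 12, 41, 79, 80 and 95. Across the Tg mice they ran from 44.0 CPM through a median of 57.2 to 66.5 CPM. The groups overlapped, with 4 Tg mice above every Wt mouse and mice 12 and 41 below every Tg mouse. Of the exon bases of Fdft1, 774 are shared with Ctsb on the opposite strand, and the counting is not stated to use strand, so reads in that stretch cannot be assigned with certainty.

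Nsdhl, a sterol dehydrogenase of the enzyme complex that removes methyl groups from lanosterol, lies on chromosome X (72918557 to 72958514, plus strand). It was at 15.9 CPM in mouse 12, 10.7 in mouse 41, 20.3 in mouse 79, 22.3 in mouse 80 and 18.1 in mouse 95. The lowest Tg mouse had 17.9 CPM, the median was 22.1 and the highest mouse had 26.9 CPM. Mouse 41 was well below the other mice of either group, and the Wt mice of batch 2 lay among the Tg mice.

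Lbr, the lamin B receptor, is a sterol reductase of the inner nuclear membrane that also tethers heterochromatin (chromosome 1, 181815335 to 181843046, minus strand). Wt levels were 17.5, 12.05, 18.7, 15.1 and 14.7 CPM in mice 12, 41, 79, 80 and 95. Tg levels ran from 14.2 CPM through a median of 18.5 to 23.5 CPM. The groups overlapped over most of their range, and mouse 41 was again the lowest of all 12 mice. Lbr shares 509 exon bases with other genes, 440 of them with Dnah14 on the opposite strand.

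Fa2h, fatty acid 2-hydroxylase, makes the hydroxylated fatty acids of myelin galactolipids (chromosome 8, 111345135 to 111393824, minus strand). In Wt mice it stood at 29.2 CPM in mouse 12, 11.8 in mouse 41, 18.6 in mouse 79, 10.6 in mouse 80 and 14.7 in mouse 95. The Tg mice ran from 14.1 CPM in mouse 93 through a median of 33.6 to 42.4 CPM in mouse 32, with mouse 91 at nearly the same level. Its coefficient of variation was 44.2% in Wt and 35.8% in Tg mice, the widest of the 5 enzymes in both groups, where counting error gives 5.66% and 4.16%.

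**Figure D1:**
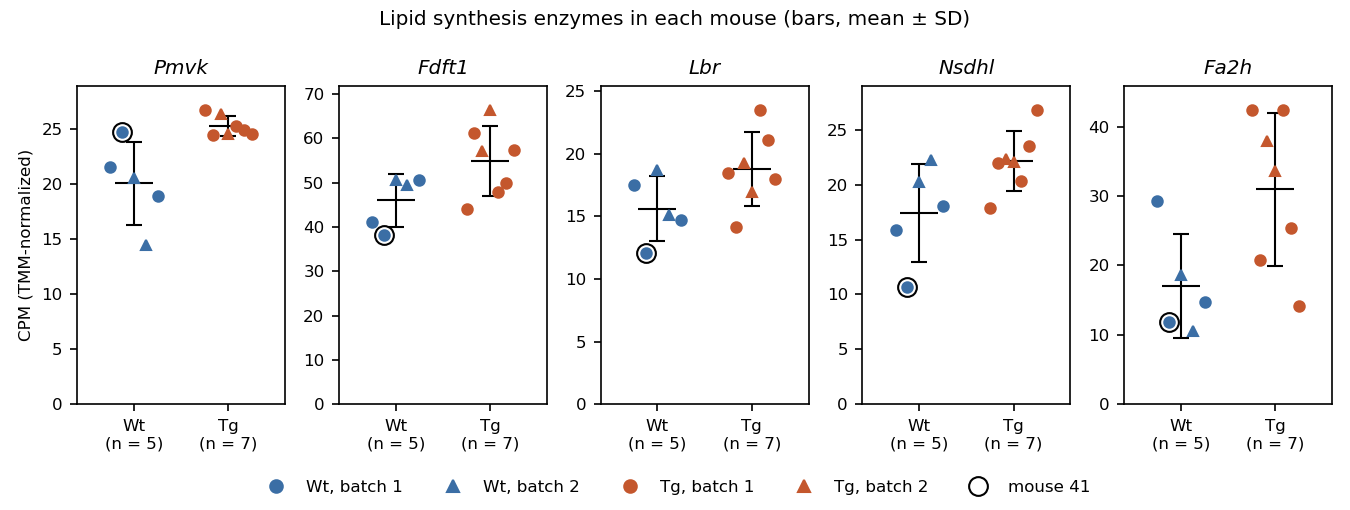
Level of each enzyme in each mouse, in CPM, with Wt mice in blue and Tg mice in orange, circles for batch 1, triangles for batch 2, a ring around mouse 41, and bars for mean ± SD. The 7 Tg mice lie between 24.4 and 26.8 CPM for Pmvk and between 14.1 and 42.4 CPM for Fa2h.

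Divided by the length of the merged exons, to compare genes with each other, the mean level in Wt mice was 11.7 CPM per kb for Pmvk, 10.9 for Fdft1, 6.11 for Nsdhl, 5.64 for Fa2h and 3.28 for Lbr. In Tg mice the same quantity was 14.7 for Pmvk, 12.98 for Fdft1, 10.3 for Fa2h, 7.76 for Nsdhl and 3.95 for Lbr. By these means Fa2h stood beside Nsdhl in Wt mice and above it in Tg mice, but not in every Tg mouse. In mouse 93 Fa2h had 14.1 CPM over 3008 exon bases and Nsdhl 26.9 CPM over 2853. Neighbours in this order, Pmvk with Fdft1 and Nsdhl with Fa2h, overlapped between mice in Wt samples.

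RefSeq promoter windows (250 bases before to 50 after a start site, GRCm38.p6) were at hand for 3 of the 5 enzymes, and were read because SREBP2 acts at such sites together with NF-Y, which reads CCAAT, and Sp1, which reads GGGCGG. The 2 stretches that held the most of these letters are shown up to the base before the start site, in gene sense, with CCAAT or its reverse complement ATTGG and GGGCGG in capitals. The Nsdhl stretch, chrX:72918412-72918520 on the plus strand, begins where the exons of the neighbouring gene Cetn2 end. The Lbr stretch, chr1:181842402-181842651 on the minus strand, lies inside the annotated gene but in no exon.
Nsdhl: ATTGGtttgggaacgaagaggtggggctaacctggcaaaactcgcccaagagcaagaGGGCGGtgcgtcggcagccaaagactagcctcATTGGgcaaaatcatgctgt
Lbr: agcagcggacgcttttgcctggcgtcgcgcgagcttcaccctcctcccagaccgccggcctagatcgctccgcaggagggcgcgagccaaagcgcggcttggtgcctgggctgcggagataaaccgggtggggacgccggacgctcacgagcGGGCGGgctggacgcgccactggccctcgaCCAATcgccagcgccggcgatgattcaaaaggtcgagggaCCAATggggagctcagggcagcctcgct

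Counted over the whole window and on both strands, Nsdhl held CCAAT 4 times, at positions -109, -20, 9 and 35 from the start site, and 1.06% of the 32851 windows in the table held it as often. Lbr held it 2 times, at -68 and -28, as 11.7% of windows did at least. GGGCGG stood 1 time in the Nsdhl window, at -52, and 2 times in that of Lbr, at -98 and 3. Of all windows, 35.7% held it at least 1 time and 19.5% at least 2 times. Of the 2 windows of Pmvk, the first held 1 CCAAT, at -136, as 37.4% of windows did at least, and the other held none of the motifs. The sterol element letters TCACCCCAC, its looser form TCACNCCAC, which includes the first, and the E-box CACGTG were in none of the 4 windows, where 0.551%, 1.24% and 7.15% of all windows hold them. These matches describe letters, not bound sites.

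The Tg and Wt groups were then compared over all 15928 genes in edgeR's quasi-likelihood model, which held sex and batch as covariates. The log2 fold change was 0.32 for Pmvk (standard error 0.11), 0.27 for Fdft1 (0.10), 0.40 for Nsdhl (0.14), 0.29 for Lbr (0.11) and 0.89 for Fa2h (0.30), all higher in Tg mice. On a linear scale these are levels 1.25, 1.21, 1.32, 1.22 and 1.86 times those of Wt mice. None passed the adjusted p threshold of 0.1. The adjusted p values (Benjamini-Hochberg) ran from 0.611 to 0.637 and the unadjusted ones from 0.0116 for Fa2h to 0.0245 for Lbr, and the DESeq2 Wald test gave adjusted p values from 0.422 to 0.548, calling 0.352% of all genes and none of the 5. In this comparison 0.00628% of all genes were called and 7.19% had an unadjusted p under 0.05, or 4.46% counted as higher in Tg mice. All 5 enzymes are in that last share, as the way they were named favours. For none of the 5 did every Tg mouse lie above every Wt mouse, which 0.22% of all genes show.

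In a two-sided exact permutation test of log2 CPM, over every way to divide the mice into 5 and 7 and without covariates, the unadjusted p was 0.00505 for Pmvk, 0.0328 for Nsdhl, 0.0366 for Fa2h, 0.0694 for Fdft1 and 0.0884 for Lbr. The smallest p this design allows is 0.00126. The enzymes have a name only through a table ranked by this difference in the same mice. These p values, and those below for fewer mice, are therefore a description and no independent test. The share of all genes under 0.05 was not counted for this test. Within batch 1, where 3 Wt mice meet 5 Tg mice and the smallest p over 56 splits is 0.0179, the exact p was 0.0357 for Nsdhl, 0.0536 for Pmvk, 0.125 for Fdft1 and Lbr, and 0.25 for Fa2h. Without mouse 41 the exact p was 0.00303 for Pmvk, 0.0848 for Fa2h, 0.118 for Nsdhl, 0.152 for Fdft1 and 0.227 for Lbr.

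The library of mouse 41 moved these differences in both directions. Without it the log2 fold change of Nsdhl fell from 0.40 to 0.26 (standard error 0.13) and that of Fdft1 from 0.27 to 0.18 (0.10). Lbr changed less, from 0.29 to 0.23 (0.12), and Fa2h from 0.89 to 0.78 (0.35). Pmvk went the other way, to 0.40 (0.12). Without mouse 41 only Pmvk and Fa2h had an unadjusted p under 0.05 in edgeR. The share of all genes under 0.05 in that fit was not counted, so nothing is read from which enzymes pass. With mouse 41 entered as female instead, the 5 log2 fold changes lay between 0.23 and 0.90 and the unadjusted p values between 0.0163 and 0.0366.

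The enzymes parted when the cell type markers were taken into account. A score for each mouse, the mean log2 CPM of the 13 oligodendrocyte markers, averaged 5.86 ± 0.63 in Wt (SD, n = 5) and 6.72 ± 0.70 in Tg mice (SD, n = 7). The markers of this score and of the choroid plexus score were named through the same table as the enzymes. All of them were higher in Tg mice, so each score itself takes in the selected difference. With that score as a further covariate, the log2 fold change of Fa2h was 0.04 (standard error 0.15) and that of Lbr was 0.12 (0.13). For Fdft1 it was 0.38 (0.12) and for Nsdhl 0.55 (0.17), in each case larger than without the score. Pmvk stood between these, at 0.25 (0.14). With the choroid plexus score in its place the values were 0.23 for Fa2h, 0.12 for Lbr, 0.36 for Fdft1, 0.51 for Nsdhl and 0.25 for Pmvk. Within batch 1 alone they were 0.34, 0.15, 0.36, 0.54 and 0.20, so that the same 2 enzymes, Fdft1 and Nsdhl, were those with an unadjusted p under 0.05 in each of these 3 fits. Without mouse 41, in fits added after seeing the data, the log2 fold change with the oligodendrocyte score was 0.04 for Fa2h, 0.10 for Lbr, 0.30 for Fdft1, 0.44 for Nsdhl and 0.31 for Pmvk. In that fit and in the one with the choroid plexus score, Pmvk joined Fdft1 and Nsdhl with an unadjusted p under 0.05. Within batch 1 without mouse 41, which leaves 2 Wt mice, Fdft1 had 0.27 (standard error 0.14), Nsdhl 0.40 (0.19) and Pmvk 0.29 (0.13), and none of the 5 had an unadjusted p under 0.05. No adjusted p was under 0.1 in any of these fits. The share of all genes with an unadjusted p under 0.05 was not counted in them. Which enzymes pass 0.05 there is therefore only a description.

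**Figure D2:**
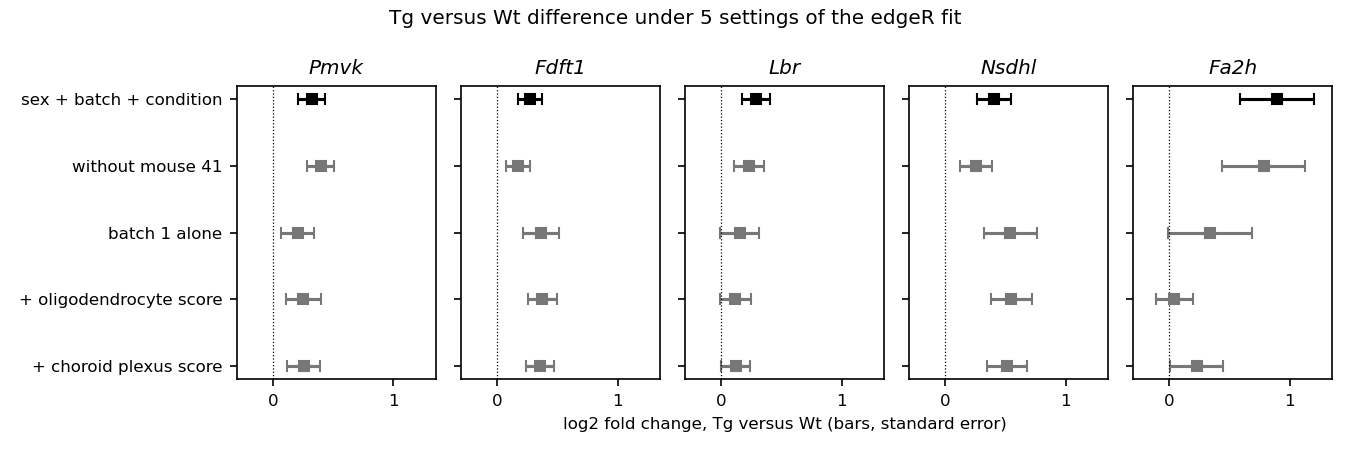
Log2 fold change of each enzyme between Tg and Wt mice, with its standard error, in 5 versions of the edgeR fit. Fa2h falls from 0.89 to 0.04 when the oligodendrocyte score enters the fit, and Nsdhl goes from 0.40 to 0.55.

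Covariation between mice was examined over 25 relations, adjusted together by the Benjamini-Hochberg method, with permutation p values. Fa2h followed the oligodendrocyte score closely, with Pearson's r of 0.94 over 12 mice (permutation p = 3e-05, adjusted p = 7.50e-04) and Spearman's rho of 0.92 (permutation p = 6.00e-05, adjusted p = 0.0015). Without the 2 mice farthest from the median score r was 0.93, without mouse 41 it was 0.94, within batch 1 it was 0.98 (8 mice), within Tg mice it was 0.96 (7 mice), and after removal of sex, batch and condition it was 0.95. With the choroid plexus score r was 0.85 (permutation p = 0.0013, adjusted p = 0.00785; rho = 0.76, permutation p = 0.00564, adjusted p = 0.0415), and it was 0.89 without the 2 farthest mice, 0.82 without mouse 41, 0.87 within batch 1 and 0.85 after removal of sex, batch and condition. The oligodendrocyte and choroid plexus scores are themselves related, with r of 0.93 over the 12 mice and 0.90 after that removal, so the relations to either cannot be told apart.

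Lbr also followed both scores. Its r with the oligodendrocyte score was 0.81 (permutation p = 0.00128, adjusted p = 0.00785; rho = 0.73, permutation p = 0.00905, adjusted p = 0.0415), or 0.62 without the 2 farthest mice, 0.73 without mouse 41, 0.85 within batch 1 and 0.70 after removal of sex, batch and condition. With the choroid plexus score it was 0.83 (permutation p = 6.60e-04, adjusted p = 0.00785; rho = 0.85, permutation p = 9.90e-04, adjusted p = 0.0124), 0.70 without the 2 farthest mice, 0.77 without mouse 41, 0.89 within batch 1 and 0.78 after removal of sex, batch and condition. Pmvk stood between the enzymes, with r of 0.43 and 0.35 with these scores (permutation p = 0.158 and 0.28). Its rho was 0.62 and 0.53 (permutation p = 0.0345 and 0.0799). Without mouse 41 r was 0.60 and 0.48, and after removal of sex, batch and condition it was 0.30 and 0.32.

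For Fdft1 and Nsdhl no such relation was detected. Their r with the oligodendrocyte score was 0.11 (permutation p = 0.739, adjusted p = 0.8; rho = 0.03, permutation p = 0.939) and 0.29 (permutation p = 0.383, adjusted p = 0.563; rho = 0.11, permutation p = 0.733). Without mouse 41 both were negative, at -0.24 and -0.25, and after removal of sex, batch and condition they were -0.46 and -0.41. Within Tg mice the values were -0.52 and -0.70. The Tg mouse with the lowest score, mouse 93, had the highest Nsdhl level, and the Wt mouse with the highest score, mouse 12, had less Nsdhl than 3 of the other 4 Wt mice.

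**Figure D3:**
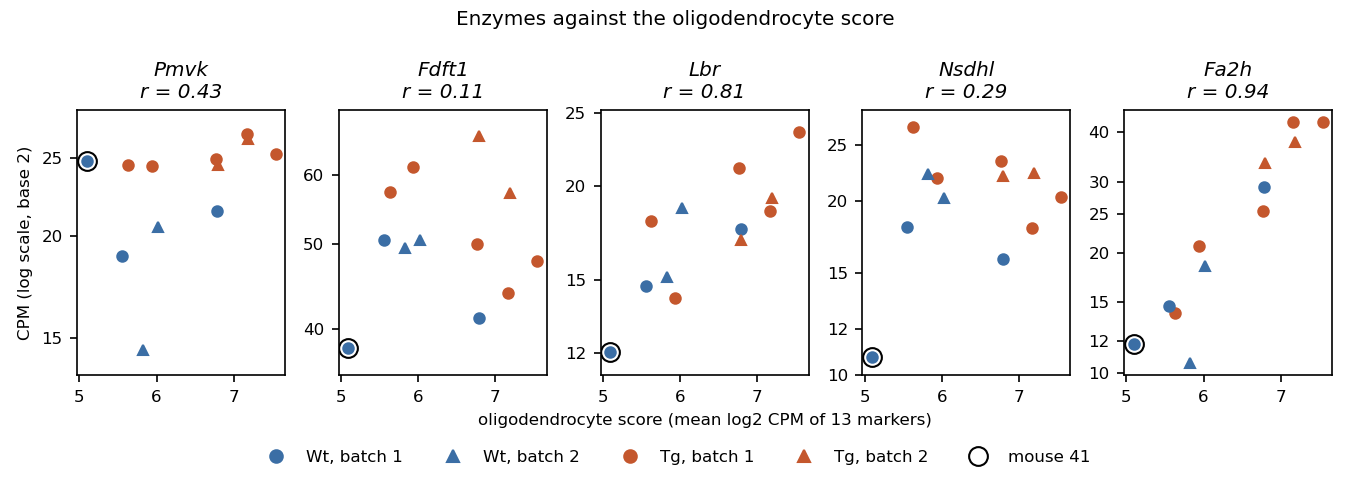
Level of each enzyme in CPM, on a log scale, against the oligodendrocyte score of the mouse, with symbols for group and batch and a ring around mouse 41. Points rise with the score for Fa2h (r = 0.94) and Lbr (r = 0.81), while for Fdft1 (r = 0.11) and Nsdhl (r = 0.29) mouse 41 is low at the lowest score and the other mice show no rise.

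The same 2 enzymes followed each other. Fdft1 and Nsdhl had r = 0.78 over 12 mice (permutation p = 0.00157, adjusted p = 0.00785), with rho = 0.65 (permutation p = 0.0255, adjusted p = 0.0797). It was 0.76 without the 2 farthest mice, 0.69 without mouse 41, 0.85 within batch 1, 0.55 within Tg mice and 0.91 after removal of sex, batch and condition. The genes lie on chromosomes 14 and X and share no exon. Neither followed Lbr once mouse 41 was set aside, with r of -0.28 for Fdft1 and 0.09 for Nsdhl. Over all 12 mice, after removal of sex, batch and condition, r was -0.11 and -0.0074. Without that removal the r of Nsdhl with Lbr was 0.54 over the 12 mice (permutation p = 0.0751, adjusted p = 0.188). Its rho was 0.38 (permutation p = 0.228).

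Among Tg mice Pmvk varied less than counting error alone would give (3.73% against 4.63%), so an r of Pmvk within Tg mice has little to rest on. Pmvk, the earliest of the enzymes in the pathway, had its highest r among the enzymes with Fa2h. It was 0.64 (permutation p = 0.016, adjusted p = 0.0499; rho = 0.72, permutation p = 0.00997, adjusted p = 0.0415), 0.77 without mouse 41, 0.69 within Tg mice and 0.49 after removal of sex, batch and condition, but 0.36 without the 2 mice farthest in Pmvk and 0.39 within batch 1, so over the 12 mice it rests in part on those 2. With Lbr the r of Pmvk was 0.32 (permutation p = 0.303, adjusted p = 0.545; rho = 0.52, permutation p = 0.089, adjusted p = 0.185), 0.53 without mouse 41 and 0.30 after removal of sex, batch and condition. With Fdft1 and Nsdhl its r was 0.10 and -0.04 over 12 mice (permutation p = 0.768 and 0.888; rho = -0.14 and 0.06, permutation p = 0.665 and 0.852), without mouse 41 0.21 and 0.13, and after removal of sex, batch and condition -0.59 and -0.71. Within Tg mice the r of Pmvk was 0.34 with Lbr, -0.63 with Fdft1 and -0.66 with Nsdhl. Lbr and Fa2h had r = 0.69 (permutation p = 0.0127, adjusted p = 0.0455; rho = 0.61, permutation p = 0.0395, adjusted p = 0.0988), 0.51 without the 2 farthest mice, 0.61 without mouse 41, 0.75 within batch 1 and 0.65 after removal of sex, batch and condition.

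**Figure D4:**
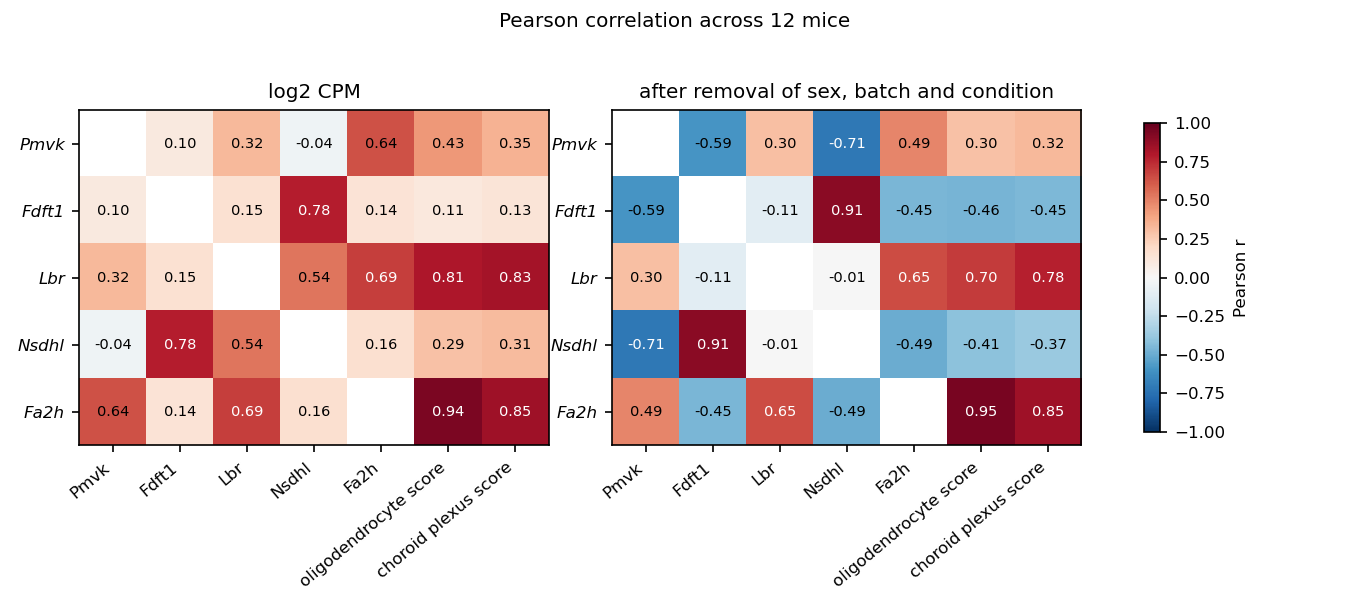
Pearson's r across the 12 mice between the enzymes, and between the enzymes and both marker scores, from log2 CPM on the left and after removal of sex, batch and condition on the right. Fdft1 and Nsdhl are at 0.78 and 0.91, and Fa2h with the oligodendrocyte score at 0.94 and 0.95.

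App in Tg mice fell into separate clusters, of 3 mice between 2991 and 3393 CPM and of 4 mice between 5140 and 5727 CPM, so no r over the 7 mice is given, and neither cluster holds enough mice for one of its own. The 3 mice with less App, 32, 91 and 92, had 44.0, 47.8 and 49.99 CPM of Fdft1, and the 4 with more, 67, 68, 69 and 93, had 61.2, 57.2, 66.5 and 57.4 CPM. Lbr ran the other way, with 18.5, 23.5 and 21.1 CPM in the first 3 and 14.2, 19.2, 17.0 and 17.98 CPM in the other 4. Fdft1 did not overlap between these sets of mice and Lbr overlapped in the range of 18.5 to 19.2 CPM. Pmvk, Nsdhl and Fa2h overlapped as well. How many of all genes part these sets was not counted, so nothing is read from the separation of Fdft1. The first 3 are females with oligodendrocyte scores from 6.77 to 7.54, and 3 of the other 4 are males, with scores of the 4 from 5.63 to 7.19, and 2 of them are of batch 2, so App, sex, batch and markers cannot be told apart here.

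Sex was compared in the same fit. At an unadjusted p under 0.05, 1 of the 5 enzymes differed, beside 11.3% of all genes. This was Lbr, with a log2 fold change of 0.32 higher in females (standard error 0.11, edgeR unadjusted p = 0.0148, adjusted p = 0.377). Females had 17.5, 18.7 and 15.1 CPM in the Wt group and between 17.98 and 23.5 CPM in the Tg group, and mice labelled male had 12.05 and 14.7 CPM in the Wt group and 14.2, 19.2 and 17.0 CPM in the Tg group. Without mouse 41 the difference was 0.27 (standard error 0.13), and with the oligodendrocyte score as a covariate, an alternative chosen after seeing the data, it was 0.23 (0.11). In neither was the unadjusted p under 0.05. Nsdhl, which is X-linked, was 0.20 higher in females (95% confidence interval -0.10 to 0.51, edgeR unadjusted p = 0.17). That difference was 0.07 without mouse 41 and 0.04 with mouse 41 entered as female. Pmvk and Fdft1 had -0.10 and -0.12, and Fa2h had 0.25 with an interval from -0.42 to 0.92. Without mouse 41 these were -0.017 for Pmvk, -0.21 for Fdft1 (standard error 0.10) and 0.12 for Fa2h. Across all genes edgeR called 0 at an adjusted p under 0.1, where 1801 had an unadjusted p under 0.05 and DESeq2 called 175, or 1.1% of genes.

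Between batches, 0 of the 5 enzymes had an unadjusted p under 0.05 in the edgeR fit, beside 7.64% of all genes. Nsdhl and Fdft1 had the highest values, 0.27 (95% confidence interval -0.05 to 0.58) and 0.22 (-0.01 to 0.44) on the log2 scale, higher in batch 2. With the oligodendrocyte score as a covariate, added after seeing the data, they were 0.32 and 0.25 (standard errors 0.14 and 0.10), with unadjusted p values under 0.05. Without mouse 41 Nsdhl and Fdft1 fell to 0.16 and 0.15 (standard errors 0.13 and 0.10), and without Wt mouse 95 they were 0.38 and 0.27 (0.14 and 0.11), where both had an unadjusted p under 0.05. The share of all genes under 0.05 was not counted in these alternative fits. Lbr, Fa2h and Pmvk had 0.10, 0.10 and -0.14, or 0.07, 0.0066 and -0.08 without mouse 41. Whether the difference between Tg and Wt mice differed between the sexes was tested as an interaction. None of the enzymes had an unadjusted p under 0.05, beside 3.56% of all genes, and the intervals were wide, from -2.61 to 1.05 for Fa2h and from -0.61 to 0.84 for Lbr on the log2 scale. Mouse 41 is 1 of the 2 Wt mice labelled male, and this interaction changed sign without it for Pmvk and Nsdhl.

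Other genes of lipid metabolism were read from lists of the pathways. Of 21 enzymes of sterol synthesis 4 have a recovered name, the 4 described here, with a median log2 fold change of 0.30. Of all genes with a recovered name 55.9% were above 0, and of all genes 49.3%. The naming favours genes that differ between Tg and Wt mice, so this median cannot be set against that of all genes, -0.0030. The values of this list and the next describe the named genes and not whole pathways. Of 24 genes of sterol regulation and transport 3 have a name. Stard4, which carries cholesterol between membranes, had 0.46 (standard error 0.11, edgeR unadjusted p = 8.64e-04, adjusted p = 0.597), Npc2, the cholesterol carrier of lysosomes, had 0.28 (0.10), and Apod, apolipoprotein D, had 1.09 (0.35). None of these was called.

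Of 33 genes of sphingolipid and very long chain fatty acid synthesis 8 have a name, of which 7 were above 0 and 1 below, with a median of 0.64 and none called. Cers2, the ceramide synthase for very long chains, stood at 0.62 on the log2 scale (standard error 0.17), Elovl1 and Elovl7, which lengthen fatty acids, had 0.66 (0.23) and 1.26 (0.38), and Aspa, which frees acetate from N-acetylaspartate in oligodendrocytes, had 1.20 (0.34). Gltp, a glycolipid transfer protein, was at 0.57 (0.19), Scd1, a fatty acid desaturase, at 0.35 (0.14), and Elovl2, which lengthens polyunsaturated fatty acids, at -0.33 (0.12). Single mice ranged from 0.833 CPM for Aspa to 175.3 CPM for Scd1.

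As a description over 12 mice, with points that share libraries and group, Cers2, Elovl1, Elovl7, Scd1, Aspa, Apod and Npc2 had r between 0.87 and 0.96 with the oligodendrocyte score, near the 0.94 of Fa2h, and Gltp had 0.78. After removal of sex, batch and condition these genes ran from 0.79 for Npc2 to 0.95 for Elovl7, with Gltp at 0.68. Stard4 had 0.33, and after removal of sex, batch and condition -0.40, close to the values of Fdft1 and Nsdhl. Its r with Fdft1 was 0.76, and after that removal 0.50 with Fdft1 and 0.74 with Nsdhl. Elovl2 ran against the score, at -0.65, and at -0.51 after that removal.

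**Figure D5:**
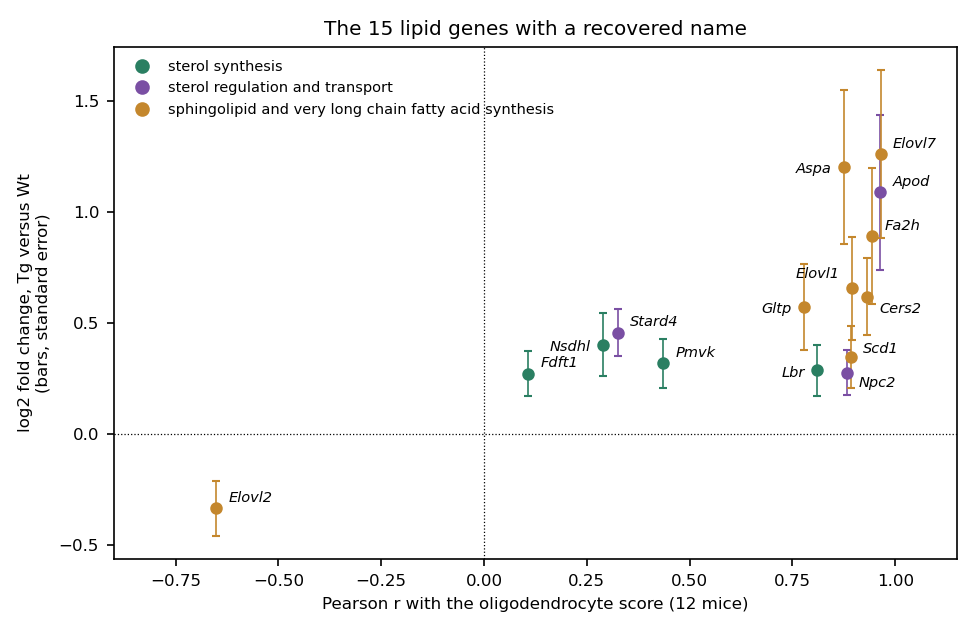
Log2 fold change between Tg and Wt mice, with its standard error, against Pearson's r with the oligodendrocyte score over 12 mice, for the 15 lipid genes that have a recovered name, coloured by list. Fdft1, Nsdhl, Stard4 and Pmvk have r between 0.11 and 0.43, Lbr and Npc2 stand beside the sphingolipid genes at 0.81 and 0.88, and Elovl2 is at -0.65.

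The marker lists differed between Tg and Wt mice to different extents. The markers counted here were named through the same table as the enzymes, and of all genes so named 55.9% had a log2 fold change above 0. The 13 named oligodendrocyte markers of 18, from which the score was built, all did, with a median of 0.95, and Mbp, myelin basic protein, was at 964 ± 523 CPM in Wt (SD, n = 5) and 1861 ± 809 CPM in Tg mice (SD, n = 7). Of 15 choroid plexus markers 14 have a name, all above 0 with a median of 2.16, with Ttr between 16.9 and 370.8 CPM in Wt and between 7.21 and 1581 CPM in Tg mice, and Kl at 9.72 ± 3.41 and 35.8 ± 22.2 CPM. No named marker was at 0 in all mice. Among astrocyte markers 3 of 5 named were above 0, with Slc1a2 and Slc1a3 at -0.32 and -0.19, and the score was 7.82 ± 0.20 in Wt and 8.05 ± 0.09 in Tg mice. All 3 named microglial markers were above 0, C1qb and C1qa by 0.29 and 0.27, and of 4 neuronal markers 2 were above 0 and 2 below, Camk2a and Slc17a7 at -0.25 and -0.26, and Nefh and Gad2, named after their values were seen, at 0.50 and 0.27. The part of these markers in the results was not tested beyond the covariate fits given.

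Among genes with a recovered name, those most like each enzyme were ranked by Pearson's r of log2 CPM over the 12 mice. The nearest to Fa2h were Cnp (0.99), Mbp (0.98) and Gjb1 (0.98), which also rank 1 to 3 among the other 15927 genes. Lbr was most like D7Ertd443e (0.95), Cd81 (0.94) and Smco3 (0.93), again ranks 1 to 3, and Pmvk most like Gm6304 (0.95), Ltc4s (0.92) and Fhod1 (0.91). Nsdhl had 6430628N08Rik (0.92, rank 2), Tgif1 (0.87) and Gfap (0.87), and Fdft1 had Prnp (0.89, rank 2), Ccdc17 (0.81) and Gm22776 (0.81). The study lists Prnp, the prion protein gene, among those higher in Tg mice, and a hamster promoter of that gene drives the transgene. Whether transgene reads were counted as Prnp was not tested. No enzyme was among the 3 genes nearest to another. These neighbours come from a set of genes chosen on the difference between Tg and Wt mice.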

How the data were processed

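The authors removed ribosomal RNA from total RNA, sequenced it on an Ion Torrent S5XL, aligned reads to mm10 with STAR and Bowtie 2, removed genes with low counts and deposited raw counts of 15928 genes; versions and the filter value are not given in the sources used here. A second deposited table gives the library size, the batch and edgeR's normalization factor, a ratio between libraries. Names were recovered for 1349 of 1684 genes of the study's DESeq2 table by matching mean normalized counts within a relative difference of 1e-09 (largest 4.4e-10, and 0 matches in 10 trials with shifted means). The fold changes and p-values of that table were not used.

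Counts were tested with edgeR 4.0.16 (quasi-likelihood F-test, TMM, filterByExpr, which removed 0 genes, design ~ sex + batch + condition, adjusted p threshold 0.1) on all genes, and with DESeq2 1.42.0 as an alternative. The biological coefficient of variation was 0.201. CPM are TMM-normalized, and log2 CPM used a prior count of 2. Correlations used 100000 permutations. The steps were tested on simulated data. Positions of genes follow GENCODE M21 (GRCm38) and promoters from RefSeq on GRCm38.p6. Replicates are mice numbered in the labels, and groups and sexes were taken from the labels. Genes named are the 5 enzymes, App and Xist, every gene of 3 lipid lists with a recovered name, the 2 most abundant genes of each marker list (1 of which is not reported here), and the 3 genes most like each enzyme. The enzymes and lists were chosen with earlier results of these data known. DNA methylation was not analysed here.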

Additional observations from a re-analysis of the deposited data

How the results depend on the processing

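The log2 fold changes of the 5 enzymes between Tg and Wt mice stayed above 0 under every alternative run, and none passed an adjusted p of 0.1 under any. The number of genes called in that comparison was 1, or 56 with DESeq2, 2 with the oligodendrocyte score, 2 with the choroid plexus score, 0 within batch 1 (2, 2 and 0 in the same 3 fits with mouse 41 removed, added after seeing the data), and 1 to 2 with a mouse left out. For sex it was 0, or 175 with DESeq2, 1 with mouse 41 entered as female, and 0 to 540 with a mouse left out (540 without Wt mouse 95). DESeq2 called 24 genes between batches and 17 for the interaction, where edgeR called 0, and the interaction gave 1 gene with mouse 41 as female and 0 to 1 with a mouse left out. The difference of Fa2h between sexes turned to -0.27 and -0.23 with the oligodendrocyte and choroid plexus scores, and that between batches to -0.16 and -0.35, while Lbr between batches was -0.0066 with the choroid plexus score. With mouse 41 as female the interaction turned to -0.34 for Pmvk, 0.11 for Fdft1 and 0.56 for Nsdhl. With a mouse left out it ranged from -0.27 to 0.42 for Pmvk, -0.46 to 0.082 for Fdft1, -0.26 to 0.53 for Lbr, -0.57 to 0.28 for Nsdhl and -2.33 to 1.23 for Fa2h (positive only without Wt mouse 12), and the batch difference of Fa2h from -0.054 to 0.40. In the exact permutation test within batch 1, Pmvk had 0.22 and Fa2h 0.63 and both lost p under 0.05. With a mouse left out the log2 difference was 0.24 to 0.43 for Pmvk, 0.19 to 0.30 for Fdft1, 0.18 to 0.33 for Lbr, 0.21 to 0.48 for Nsdhl and 0.72 to 1.09 for Fa2h, and the exact p crossed 0.05 in some of these for all but Pmvk (largest p 0.0121). Of the 25 relations 8 had an adjusted p under 0.05 (1 of them with App over the 7 Tg mice, which is not read because they form clusters), against 8 with a prior count of 0.5, 6 without mouse 41 and 6 after removal of sex, batch and condition. The cause of these changes was not tested. No paired analysis was possible because the numbers in the labels name single mice and are shared by no Wt and Tg mouse. Counts per enzyme and mouse were 179 to 1415, and the spread between mice exceeded counting error except for Pmvk in Tg mice (3.73% against 4.63%).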

Other observations

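Of the 5 enzymes and 2 marker scores, tested in each group for a mouse far from the others (14 tests, of which chance alone would give about 1 in 20), 0 stood out, although mouse 41 was the lowest of the 12 mice for Fdft1, Nsdhl and Lbr and had the lowest oligodendrocyte score, 5.09.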
